A study of Mus musculus with 20 samples.

Results

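The cyclins, kinases and inhibitors of the G1/S transition were followed in the mouse liver cancer line p19/Nras. The set holds the D-type cyclins Ccnd1, Ccnd2 and Ccnd3, the E-type cyclins Ccne1 and Ccne2, the kinases Cdk4, Cdk6 and Cdk2, and the inhibitors Cdkn1b (p27) and Cdkn2c (p18). These 10 genes were chosen by symbol and not by a cut on their values, though with earlier results of these data known. Each of the 10 was listed and tested in both tables of counts, among 13107 genes of the Myc experiment and 11210 genes of the HU experiment.

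In the textbook account, D-type cyclins bind Cdk4 and Cdk6 in response to growth signals, and these complexes start to phosphorylate Rb and its relatives, which frees E2f factors to transcribe the genes of S phase. E-type cyclins with Cdk2 complete this phosphorylation and help to fire replication origins. Cdkn2c belongs to the INK4 inhibitors, which bind Cdk4 and Cdk6, whereas Cdkn1b binds cyclin E-Cdk2 complexes and blocks them.

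RNA-seq libraries were made from 10 groups of 2 libraries each. All groups share the background of the line, which comes from a tumor raised by Nras in mice that lack p19/Arf, so that no group is normal liver. In the Myc experiment, cells with a control sgRNA (WT) and the Trim33-KO lines KO1 and KO2 carried the pWZL vector, either as the control (Ctrl) or with Myc, without further treatment. This gives the groups WT Ctrl, KO1 Ctrl, KO2 Ctrl, WT Myc, KO1 Myc and KO2 Myc. Trim33 is a ubiquitin ligase, and Myc is an oncogenic transcription factor. In the HU experiment, cells with and without sgRNA against Trim33 were kept for 4 h with 1 mM hydroxyurea (HU), an inhibitor of ribonucleotide reductase that stalls replication forks, or with a control, giving WT untreated, KO untreated, WT HU and KO HU. Whether a KO line is a single clone, which of the KO lines was used with HU, and whether the libraries of a group came from separate cultures are not given in the sources used here. The p-values therefore measure the spread between these libraries, which may be technical. In such bulk samples, fewer cells of a kind and less RNA per cell cannot be told apart.

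Trim33 mRNA, the transcript of the targeted gene, was at 246 and 258 CPM in WT Ctrl, at 123 and 130.4 CPM in KO1 Ctrl and at 201 and 207 CPM in KO2 Ctrl, where CPM are read counts scaled by TMM to a common library size. It was at 131 and 155 CPM in the libraries labelled WT Myc, at 185 and 193 CPM in those labelled KO1 Myc and at 124 and 125 CPM in those labelled KO2 Myc. With the Ctrl vector Trim33 was lower in both KO lines, in KO1 (log2FC −0.99, SE 0.0692, edgeR adjusted p = 3.50e-09) and in KO2 (log2FC −0.31, SE 0.0676, edgeR adjusted p = 0.000966), with no overlap between groups. With the Myc vector it went against the labels, since those labelled KO1 Myc had more of it than those labelled WT Myc (log2FC 0.40, SE 0.0686, edgeR adjusted p = 0.000243). Myc mRNA itself was at 433 and 439 CPM in WT Ctrl, at 186 and 196 CPM in KO1 Ctrl and at 210.3 and 219 CPM in KO2 Ctrl. With the Myc vector it was at 456 and 458 CPM in the libraries labelled WT Myc, at 621 and 646 CPM in those labelled KO1 Myc and at 459 and 499 CPM in those labelled KO2 Myc. Against the Ctrl vector of its own line, Myc was higher in those labelled KO1 Myc (log2FC 1.73) and KO2 Myc (log2FC 1.16), and did not pass the test in those labelled WT Myc (edgeR adjusted p = 0.31). Those labelled KO2 Myc had less Trim33 than those labelled WT Myc with no overlap, a difference that did not pass the test (log2FC −0.20, edgeR adjusted p = 0.0263). Within the KO lines the levels crossed over, since those labelled KO1 Myc lay near KO2 Ctrl and those labelled KO2 Myc near KO1 Ctrl. All directions drawn from the libraries with the Myc vector rest on their labels. In the HU experiment Trim33 was at 139.7 and 125 CPM in WT untreated, at 50.8 and 43.8 CPM in KO untreated, at 142 and 139 CPM in WT HU and at 50.9 and 52.2 CPM in KO HU, and every KO library lay below every WT library.

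A library of the Myc experiment held 14753177 to 17949430 counts and a library of the HU experiment 2315327 to 3082202, with a common biological coefficient of variation (BCV) of 0.0498 and 0.102. Of 12 hepatocyte markers, only Afp was listed with Myc vectors and only Afp and Apob with HU, and Alb was listed in neither. Of 6 markers of cholangiocytes and liver progenitors, 4 were listed in both (Krt8, Krt18, Krt19 and Sox9), with summed levels from 1943 to 4494 CPM and from 2194 to 3142 CPM per library. Of 4 endothelial markers 0 were listed, and of 5 immune markers only Cd68, at 1.48 to 6.30 CPM and 0.790 to 5.09 CPM. Of 6 stellate cell and fibroblast markers, 5 were listed in the Myc experiment, with a sum from 70.4 to 425 CPM, and 2 in the HU experiment, with a sum from 6.01 to 24.1 CPM. The replicates of the group labelled WT Myc stood the farthest apart, with a mean squared deviation over all genes of 11.05 times the counting noise, against 2.21 to 4.52 in the other groups of the Myc experiment.

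Markers of other cell types differed between the groups, and the levels of some of them crossed over between the KO lines as Trim33 did. The summed stellate cell and fibroblast markers lay at 179 to 179.5 CPM in WT Ctrl, at 397 to 425 CPM in KO1 Ctrl and at 137 to 151 CPM in KO2 Ctrl. With the Myc vector the same sum lay at 180.4 to 189.9 CPM in the libraries labelled WT Myc, at 70.4 to 73.6 CPM in those labelled KO1 Myc and at 376 to 377 CPM in those labelled KO2 Myc. Pdgfrb, a receptor of stellate cells, was at 16.3 and 16.9 CPM in WT Ctrl, at 191 and 168 CPM in KO1 Ctrl and at 106 and 98.1 CPM in KO2 Ctrl, and with the Myc vector at 39.8 and 41.6 CPM in the libraries labelled WT Myc, at 52.9 and 55.7 CPM in those labelled KO1 Myc and at 199 and 204 CPM in those labelled KO2 Myc. Col1a2, a collagen chain, was at 131 and 129 CPM in WT Ctrl, at 142 and 141 CPM in KO1 Ctrl and at 17.2 and 14.6 CPM in KO2 Ctrl, and with the Myc vector at 119 and 123 CPM in the libraries labelled WT Myc, at 3.78 and 3.89 CPM in those labelled KO1 Myc and at 91.2 and 86.9 CPM in those labelled KO2 Myc. Krt19, a keratin of bile duct cells, was at 415 and 396 CPM in WT Ctrl, at 48.6 and 46.8 CPM in KO1 Ctrl and at 112 and 119 CPM in KO2 Ctrl, and with the Myc vector at 327 and 255 CPM in the libraries labelled WT Myc, at 135 and 139 CPM in those labelled KO1 Myc and at 48.9 and 49.6 CPM in those labelled KO2 Myc. The summed cholangiocyte and progenitor markers had means of 3254 CPM in KO1 Ctrl, 3519 in KO2 Ctrl, 3135 in KO1 Myc and 1959 in KO2 Myc. By this sum, those labelled KO1 Myc and KO2 Myc both lay nearer to KO1 Ctrl than to KO2 Ctrl. Cd68, at low levels, had means of 2.94, 3.13, 5.94 and 3.21 CPM in the same order and did not follow the cross-over. Pdgfrb, Col1a2 and Krt19 were chosen after their values were seen. For each of them the libraries labelled KO1 Myc lay nearer to KO2 Ctrl than to KO1 Ctrl, and those labelled KO2 Myc nearer to KO1 Ctrl than to KO2 Ctrl. Over the 10439 genes of at least 5 CPM on average, the median absolute log2 difference of group means was 0.208 between KO1 Myc and KO2 Ctrl against 0.230 between KO1 Myc and KO1 Ctrl, and 0.205 between KO2 Myc and KO1 Ctrl against 0.241 between KO2 Myc and KO2 Ctrl. The part of these markers and of the labels in the results was not tested.

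Levels of different genes were compared as CPM per kilobase of exon. By the median over the 12 libraries of the Myc experiment, the most abundant members were Ccnd1, at 209.9 CPM per kilobase, and Cdk4, at 196. Ccnd2 (30.8), Cdk2 (26.7), Ccnd3 (18.1) and Cdkn1b (11.1) followed. Ccne1 (6.89), Cdkn2c (6.21), Cdk6 (5.60) and Ccne2 (2.04) closed the order, on the same scale of CPM per kilobase. Cdk4 lay above Ccnd2, Cdk2 above Ccnd3, Ccnd3 above Cdkn1b and Cdk6 above Ccne2 in 12 of 12 libraries. Ccnd1 lay above Cdk4 in 8 of 12 and Ccnd2 above Cdk2 in 6 of 12, so that these neighbours changed places between libraries. In the HU experiment the order ran Ccnd1 (279), Cdk4 (123), Ccnd3 (32.2), Cdk2 (27.1), Ccnd2 (22.4), Ccne1 (19.0), Cdkn2c (11.5), Cdkn1b (9.41), Ccne2 (8.67) and Cdk6 (7.05), all in CPM per kilobase. There Ccnd2 lay above Ccne1 in 4 of 8 libraries, and Cdkn1b above Ccne2 in 4 of 8. The tables were normalized separately, so levels are compared only within a table.

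Promoter windows of 300 bases, from 250 before to 50 after the start of the gene, were taken from RefSeq (build GRCm38.p6) for the 7 of 10 members that have an entry. They were searched on both strands for the E2F-like letters TTTNNCGC and for the E-box CACGTG, the letters bound by Myc with Max. These motifs share no base in any of the windows of the members. Of all 32851 windows, 5.17% hold the E2F-like letters and 7.15% the E-box. The windows of Ccne1 and Cdk2 are shown because both genes rose in both KO lines with the Ctrl vector, and that of Cdk4 because it holds the E-box 4 times. The windows are given 5′ to 3′ in the direction of the gene, with motif letters in capitals.
Ccne1 (chr7:38107441-38107740, minus strand): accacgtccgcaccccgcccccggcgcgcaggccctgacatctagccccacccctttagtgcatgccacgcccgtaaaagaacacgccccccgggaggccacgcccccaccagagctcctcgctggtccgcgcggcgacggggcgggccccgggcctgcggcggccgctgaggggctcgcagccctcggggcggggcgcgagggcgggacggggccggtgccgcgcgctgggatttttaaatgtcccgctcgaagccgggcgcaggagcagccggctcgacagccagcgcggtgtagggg
Cdk2 (chr10:128705002-128705301, minus strand): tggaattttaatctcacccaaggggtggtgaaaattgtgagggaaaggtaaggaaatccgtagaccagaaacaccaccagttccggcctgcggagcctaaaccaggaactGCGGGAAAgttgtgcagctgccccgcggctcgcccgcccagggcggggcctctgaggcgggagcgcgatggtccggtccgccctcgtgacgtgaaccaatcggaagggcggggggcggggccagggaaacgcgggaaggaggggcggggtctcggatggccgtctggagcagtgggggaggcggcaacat
Cdk4 (chr10:127063285-127063584, plus strand): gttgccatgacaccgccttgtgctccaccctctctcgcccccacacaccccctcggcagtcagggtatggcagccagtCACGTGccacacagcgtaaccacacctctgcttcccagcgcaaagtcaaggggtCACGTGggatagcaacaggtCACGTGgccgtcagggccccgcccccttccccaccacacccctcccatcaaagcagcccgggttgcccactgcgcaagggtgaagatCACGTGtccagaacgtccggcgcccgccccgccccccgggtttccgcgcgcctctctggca
The Cdk2 window holds 1 E2F-like match, which begins 140 bases before the start and runs on the opposite strand. The window of Ccne1 holds neither set of letters. In the Cdk4 window the E-box begins 172, 118, 98 and 11 bases before the start. Cdk6 holds 1 match of each kind, a window of Cdkn2c holds 1 E-box, and those of Ccnd3 and Cdkn1b hold none. A match describes the letters only.

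**Figure D1:**
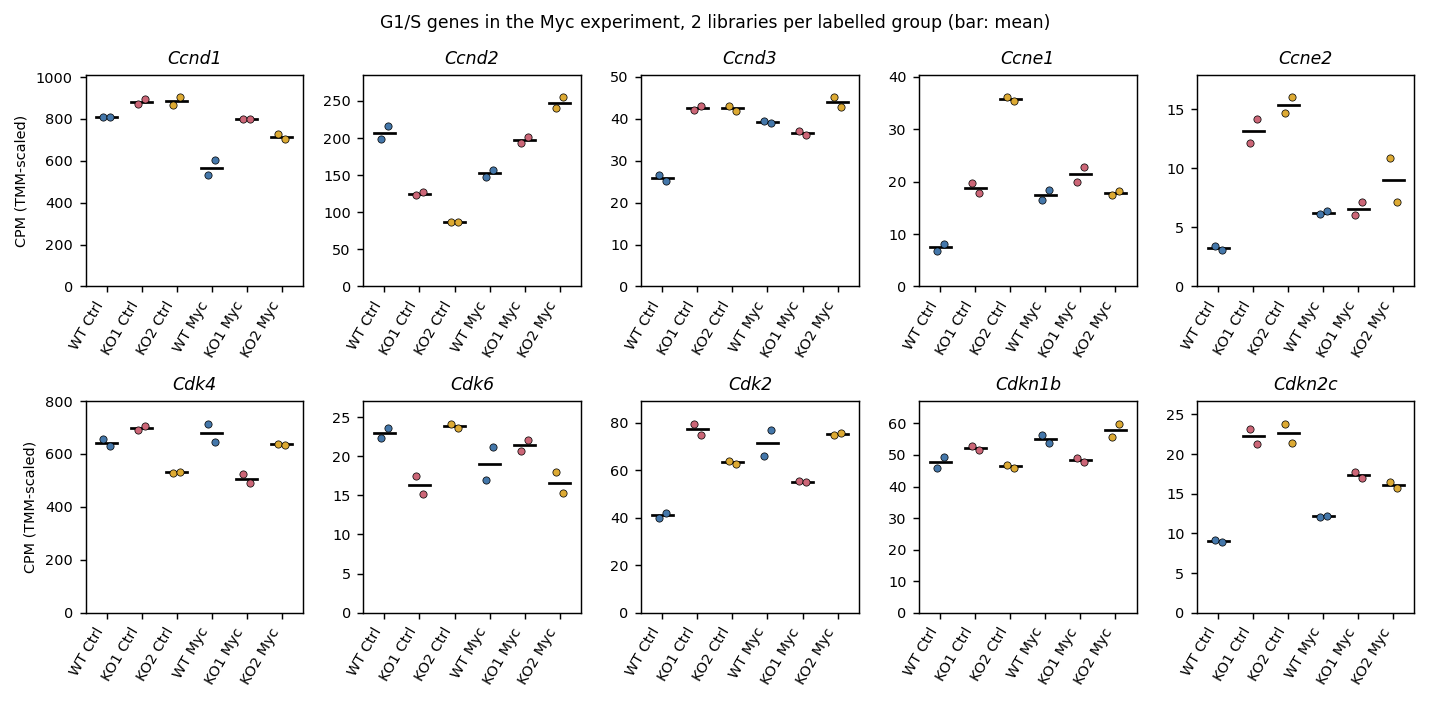
TMM-scaled CPM of the 10 G1/S genes in each of the 12 libraries of the Myc experiment, by labelled group (points are libraries, bars are means of 2 libraries, all axes start at 0). Ccnd2 is lowest in KO2 Ctrl at 86.7 and 87.2 CPM, while Ccne1, Ccne2 and Cdkn2c are lowest in WT Ctrl.

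The comparison of KO with WT lines with the Ctrl vector asks how the loss of Trim33 changes the G1/S transcripts. Both KO lines had less Ccnd2 and more Ccnd3, Ccne1, Ccne2, Cdk2 and Cdkn2c than WT Ctrl. In each line 5 of the 10 genes rose and 2 fell at an adjusted p under 0.01. Of all genes, 25.5% rose and 26.7% fell in KO1, and 23.3% rose and 26.6% fell in KO2. The groups did not overlap for 10 of 10 genes in KO1, where 83.9% of all genes did not overlap, and for 8 of 10 in KO2, where 82.1% did not. The median log2FC of the 10 genes was 0.43 in KO1 and 0.38 in KO2, beside medians of −0.00362 and −0.0112 over all genes. The stellate cell and fibroblast markers moved beside these changes, with a summed level of 179 to 179.5 CPM in WT Ctrl against 397 to 425 CPM in KO1 Ctrl and 137 to 151 CPM in KO2 Ctrl, and their part was not tested. The WT Ctrl libraries serve both comparisons, so a likeness of the lines is no independent evidence.

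Among the D-type cyclins, which activate Cdk4 and Cdk6, Ccnd2 was at 198 and 216 CPM in WT Ctrl, at 123 and 127 CPM in KO1 Ctrl and at 86.7 and 87.2 CPM in KO2 Ctrl. Every KO library lay below both WT libraries, and both KO2 libraries lay below both KO1 libraries. Ccnd2 fell in KO1 (log2FC −0.73, SE 0.0599, edgeR adjusted p = 2.51e-08) and in KO2 (log2FC −1.25, SE 0.0613, edgeR adjusted p = 6.85e-11), to 0.604 and 0.420 times its WT level. Ccnd3 was at 26.5 and 25.1 CPM in WT Ctrl, at 42.1 and 43.0 CPM in KO1 Ctrl and at 43.1 and 42.0 CPM in KO2 Ctrl, so that the KO lines lay close together and above WT. It rose in KO1 (log2FC 0.72, SE 0.0721, edgeR adjusted p = 2.41e-07) and in KO2 (log2FC 0.72, SE 0.0720, edgeR adjusted p = 2.83e-07). Ccnd1, by far the most abundant of the family, was at 808 and 808 CPM in WT Ctrl, at 871 and 895 CPM in KO1 Ctrl and at 865 and 904 CPM in KO2 Ctrl. Its KO libraries all lay above WT, by amounts that did not pass the test (edgeR adjusted p = 0.0659 in KO1 and 0.0627 in KO2). In CPM per kilobase, Ccnd2 made up 14.0% ± 0.727 of D-type cyclin mRNA in WT Ctrl, 8.09% ± 0.0436 of it in KO1 Ctrl and 5.76% ± 0.122 of it in KO2 Ctrl (mean ± SD, n = 2). Ccnd3 made up 4.43% ± 0.201, 6.97% ± 0.0234 and 7.13% ± 0.320 in the same groups. Ccnd2 was thus the larger of these minor parts in WT Ctrl and the smaller in KO2 Ctrl, while Ccnd1 held from 81.5% to 87.1% on average.

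**Figure D2:**
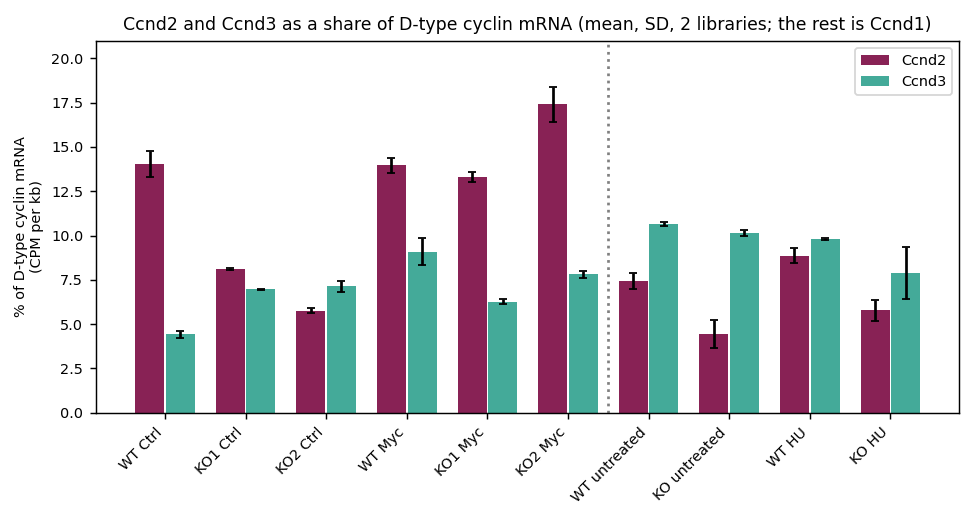
Share of Ccnd2 and Ccnd3 in the D-type cyclin mRNA of each group, in percent of the summed CPM per kilobase of Ccnd1, Ccnd2 and Ccnd3 (bars are means of 2 libraries, error bars are SD, the dotted line separates the Myc from the HU experiment). The share of Ccnd2 is 14.0% in WT Ctrl, 5.76% in KO2 Ctrl and 17.4% in the libraries labelled KO2 Myc.

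The E-type cyclins, which activate Cdk2, showed the largest log2FC of the set. Ccne1 was at 6.85 and 8.07 CPM in WT Ctrl, at 19.8 and 17.8 CPM in KO1 Ctrl and at 36.1 and 35.5 CPM in KO2 Ctrl. The 3 groups were well apart, with KO2 highest. Ccne1 rose in KO1 (log2FC 1.33, SE 0.122, edgeR adjusted p = 9.21e-08) and more in KO2 (log2FC 2.26, SE 0.112, edgeR adjusted p = 8.10e-11), by 2.52-fold and 4.79-fold. Ccne2 was at 3.39 and 3.08 CPM in WT Ctrl, at 12.1 and 14.2 CPM in KO1 Ctrl and at 14.6 and 16.0 CPM in KO2 Ctrl, low in WT Ctrl and high in every KO library. It rose 4.06-fold in KO1 (log2FC 2.02, SE 0.198, edgeR adjusted p = 1.93e-07) and 4.73-fold in KO2 (log2FC 2.24, SE 0.193, edgeR adjusted p = 4.94e-08). The sum of both cyclins was 3.73 ± 0.259 CPM per kilobase in WT Ctrl, 10.8 ± 0.114 in KO1 Ctrl and reached 17.8 ± 0.0999 in KO2 Ctrl (mean ± SD, n = 2). Ccne1 held the larger part of this sum in every group of the Myc experiment, from 65.2% in KO1 Ctrl to 81.1% in the libraries labelled KO1 Myc. Ccne1 lies on mm9 at chr7:38883003-38892553, minus strand, with no overlapping gene, and Ccne2 at chr4:11118498-11131926, plus strand, where Ints8 overlaps it on the opposite strand. The sources used here do not say whether reads were counted by strand, so reads of Ints8 and Ccne2 cannot be told apart.

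Of the kinases, Cdk2, the partner of the E-type cyclins, was at 39.8 and 42.2 CPM in WT Ctrl, at 79.7 and 75.0 CPM in KO1 Ctrl and at 64.0 and 62.6 CPM in KO2 Ctrl. All KO libraries lay above WT and those of KO1 above those of KO2. Cdk2 rose in KO1 (log2FC 0.91, SE 0.0768, edgeR adjusted p = 3.16e-08) and in KO2 (log2FC 0.63, SE 0.0778, edgeR adjusted p = 3.38e-06). Cdk4, the main partner of D-type cyclins by level, was at 656 and 628 CPM in WT Ctrl, at 689 and 705 CPM in KO1 Ctrl and at 529 and 533 CPM in KO2 Ctrl. The KO lines lay on opposite sides of WT. Cdk4 fell in KO2 (log2FC −0.27, SE 0.0572, edgeR adjusted p = 0.000587), a call that was lost without WT Ctrl replicate 1 (adjusted p = 0.0107), and did not pass the test in KO1 (edgeR adjusted p = 0.0798). Cdk6, which acts beside Cdk4, was at 22.3 and 23.7 CPM in WT Ctrl, at 17.5 and 15.2 CPM in KO1 Ctrl and at 24.2 and 23.6 CPM in KO2 Ctrl. KO1 lay below WT, and KO2 overlapped WT. Cdk6 fell in KO1 (log2FC −0.49, SE 0.117, edgeR adjusted p = 0.00156), and was not called there without WT Ctrl replicate 2 (adjusted p = 0.0194) or KO1 Ctrl replicate 2 (0.0302). Cdk4 made up 97.0% of the summed CPM per kilobase of both kinases in WT Ctrl, 98.0% in KO1 Ctrl and 96.2% in KO2 Ctrl. Overlapping genes lie on the opposite strand of Cdk4 (Tspan31) and Cdk6 (Gm17590), and none overlaps Cdk2.

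Of the inhibitors, Cdkn2c rose in both KO lines and Cdkn1b did not pass the test. Cdkn2c, which binds Cdk4 and Cdk6, was at 9.11 and 8.89 CPM in WT Ctrl, at 23.2 and 21.3 CPM in KO1 Ctrl and at 23.8 and 21.4 CPM in KO2 Ctrl. The 4 KO libraries lay well above WT and beside each other. Cdkn2c rose in KO1 (log2FC 1.30, SE 0.103, edgeR adjusted p = 1.59e-08) and in KO2 (log2FC 1.33, SE 0.103, edgeR adjusted p = 1.52e-08), by 2.47-fold and 2.51-fold. Cdkn1b, which binds cyclin E-Cdk2, was at 45.9 and 49.5 CPM in WT Ctrl, at 52.8 and 51.5 CPM in KO1 Ctrl and at 47.0 and 45.9 CPM in KO2 Ctrl, close to WT in both lines. It did not pass the test in KO1 (edgeR adjusted p = 0.12) or KO2 (0.65). No gene overlaps either inhibitor in the annotation of mm9.

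The KO lines also differed from each other. At an adjusted p under 0.01, 2 of the 10 genes were higher and 3 lower in KO2 Ctrl than in KO1 Ctrl, where 8.33% of all genes were higher and 9.96% lower. The groups did not overlap for 7 of 10, against 69.9% of all genes. Ccne1 (log2FC 0.93, SE 0.0958, edgeR adjusted p = 1.74e-06) and Cdk6 (log2FC 0.55, SE 0.115, edgeR adjusted p = 0.0018) were higher in KO2. Ccnd2 (log2FC −0.52, SE 0.0620, edgeR adjusted p = 7.60e-06), Cdk4 (log2FC −0.39, SE 0.0572, edgeR adjusted p = 6.70e-05) and Cdk2 (log2FC −0.29, SE 0.0734, edgeR adjusted p = 0.00717) were lower in KO2. The call of Cdk6 was lost without KO1 Ctrl replicate 2 (adjusted p = 0.0387), KO2 Ctrl replicate 1 (0.019) or KO2 Ctrl replicate 2 (0.0133). That of Cdk2 was lost when any 1 of the 4 libraries was left out, at adjusted p from 0.0199 to 0.0865, and with DESeq2 (0.0166). Ccnd3 and Cdkn2c, raised in both lines, gave adjusted p of 0.991 and 0.863 between them, with log2 differences whose 95% intervals run from −0.14 to 0.14 and from −0.16 to 0.21. The libraries of the Ctrl vector were also fitted alone, a choice made after seeing the data. Each of the 19 called values above kept its call and direction, and 3 of the 11 other values gained a call. The share of all genes called in that fit is not given, so the gain is no result about the set.

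**Figure D3:**
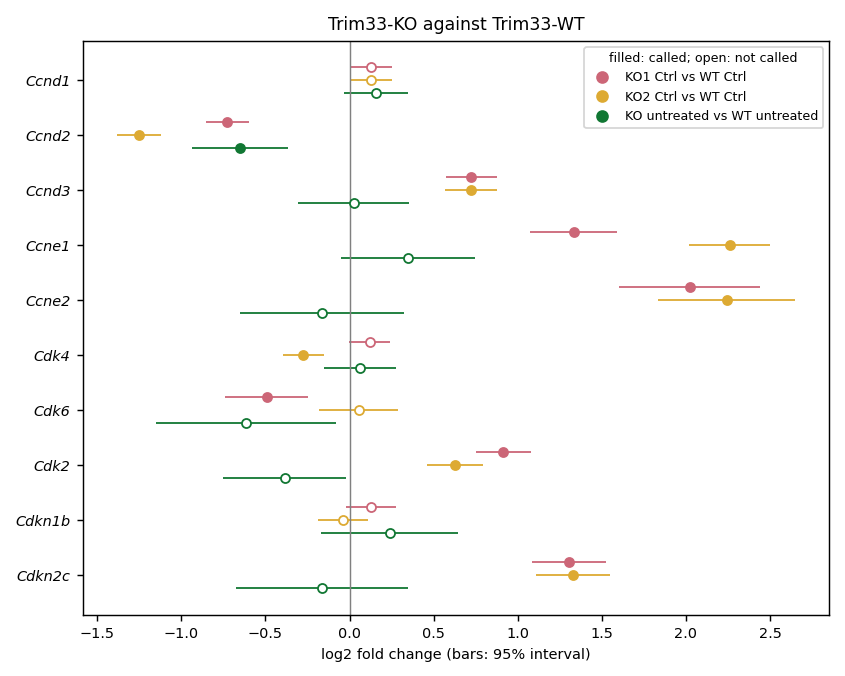
log2FC of each G1/S gene in Trim33-KO against Trim33-WT cells for KO1 Ctrl, KO2 Ctrl and KO untreated (points are edgeR estimates, bars are 95% intervals, filled points passed the threshold of their experiment). Ccnd2 lies below 0 and filled in all 3 comparisons, at −0.73, −1.25 and −0.65.

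Of 25 further G1/S genes (other inhibitors, Rb family, E2f factors, Cdk activators, ligase subunits and later cyclins), 24 were tested. In KO1 Ctrl 10 of 24 rose and 6 fell, beside 25.5% and 26.7% of all genes. In KO2 Ctrl 11 rose and 5 fell, beside 23.3% and 26.6%. Median log2FC of the 24 genes were 0.08 and 0.19. All 3 later cyclins and kinase on the list (Ccna2, Ccnb1 and Cdk1) rose in both lines. Cdk1, the mitotic kinase, had log2FC 0.91 in KO1 and 0.85 in KO2. Cdkn1a (p21), a target of p53 that inhibits Cdk2, fell in KO1 (log2FC −1.30, SE 0.0781, edgeR adjusted p = 5.33e-10) and KO2 (log2FC −0.95, SE 0.0763, edgeR adjusted p = 2.25e-08). E2f1, an activator of S phase genes, rose in KO2 (log2FC 1.22), Cdkn2b (p15), another INK4 inhibitor, rose in KO1 (log2FC 0.83), and Rb1 fell in KO1 (log2FC −0.77). Mnat1, an assembly factor of the Cdk-activating kinase, fell in KO2 (log2FC −0.62). Only the largest changes of a line are named, so a gene named for 1 line may have changed in the other. Of 3 activating E2f factors, 1 rose in KO1 and 2 rose in KO2, and 0 fell in either line. Of 3 pocket proteins (the Rb family), 1 rose and 1 fell in KO1, and 1 rose and 1 fell in KO2. Between the KO lines, E2f1 and Ccna2 were higher in KO2 (log2FC 0.40 and 0.36), and Cdkn2b and Cdkn2a were lower (log2FC −0.74 and −0.47).

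Ccne1 had the widest span of the set over the 6 groups of the Myc experiment, 2.25 on the log2 CPM scale between WT Ctrl and KO2 Ctrl. Among 10296 genes with a mean of at least 5 CPM, the 3 most like it by Pearson's r of log2 CPM over the 12 libraries were Trib2 (r = 0.973), Fam83d (r = 0.970) and Gtse1 (r = 0.967). Their log2FC were 0.67, 0.69 and 0.46 in KO1 Ctrl, against 1.02, 1.28 and 0.95 in KO2 Ctrl, all called. Within the set, the closest pairs over these 12 libraries were Ccne2 with Cdkn2c (r = 0.926) and Ccnd3 with Cdk2 (r = 0.911), and the most opposed were Cdk6 with Cdkn1b (r = −0.80) and Ccnd2 with Ccne2 (r = −0.67). The libraries fall into 6 groups of 2 and share their groups' differences, so these r describe the 12 libraries and carry no p.

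The comparison of the Myc with the Ctrl vector within each line asks what the Myc vector does to the same transcripts. Of the 10 genes, 5 were higher and 2 lower with the label WT Myc than in WT Ctrl, against 21.6% and 22.7% of all genes. In those labelled KO1 Myc, 1 was higher and 4 were lower than in KO1 Ctrl (17.9% and 18.2% of all genes), and in those labelled KO2 Myc 4 were higher and 5 lower than in KO2 Ctrl (20.2% and 18.6%). The groups did not overlap for 9, 10 and 9 of the 10 genes, against 75.2%, 76.1% and 77.5% of all genes. Median log2FC of the 10 genes were 0.32, −0.18 and −0.13, against 0.01, 0.01 and 0.02 over all genes. Trim33, Pdgfrb, Col1a2 and Krt19 crossed over between the KO lines, as given above. For Ccnd3, Ccne1, Cdk4, Cdk6, Cdk2 and Cdkn1b the KO libraries overlapped between the vectors. For these genes a change with the vector and a difference between KO1 and KO2 cells cannot be told apart. For Ccnd2, every library labelled KO1 Myc or KO2 Myc lay above every one of KO1 Ctrl and KO2 Ctrl. For Ccnd1, Ccne2 and Cdkn2c, every such library lay below them. The size of these changes within a line rests on the labels, whose part was not tested. The comparison in WT rests on the group whose replicates stood the farthest apart. Trim33 was lower in that group than in WT Ctrl (log2FC −0.82, SE 0.0686, edgeR adjusted p = 6.98e-08). By the median absolute log2 difference of group means, WT Myc lay 0.287 from WT Ctrl, 0.274 from KO1 Ctrl and 0.280 from KO2 Ctrl. It lay 0.181 from KO1 Myc and 0.216 from KO2 Myc. In WT too, a change with the vector and a difference between the cells cannot be told apart.

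Ccnd2 moved in opposite directions, and its order between KO1 and KO2 crossed over as that of Trim33 did. Every library labelled KO1 Myc or KO2 Myc lay above every library of KO1 Ctrl and KO2 Ctrl (at least 33.98 against at most 22.3 CPM per kilobase). In the size of the change within a line, the vector and a difference between KO1 and KO2 cells cannot be told apart. The part of the labels was not tested. It was at 148 and 157 CPM in the libraries labelled WT Myc, at 194 and 201 CPM in those labelled KO1 Myc and at 240.2 and 255 CPM in those labelled KO2 Myc, so that the order of the lines with the Ctrl vector, WT above KO1 above KO2, was turned around. Ccnd2 was lower with the label WT Myc than in WT Ctrl (log2FC −0.44, SE 0.0591, edgeR adjusted p = 1.16e-05), and higher in those labelled KO1 Myc (log2FC 0.66, SE 0.0597, edgeR adjusted p = 1.84e-07) and KO2 Myc (log2FC 1.51, SE 0.0610, edgeR adjusted p = 9.91e-12) than with the Ctrl vector of the same line. Ccnd1 was at 532 and 603 CPM in the libraries labelled WT Myc, at 800.3 and 802 CPM in those labelled KO1 Myc and at 729 and 704 CPM in those labelled KO2 Myc. It was lower in those labelled WT Myc (log2FC −0.51, SE 0.0585, edgeR adjusted p = 2.23e-06) and KO2 Myc (log2FC −0.30, SE 0.0582, edgeR adjusted p = 0.000395) and did not pass the test in those labelled KO1 Myc (edgeR adjusted p = 0.0569). Ccnd3 was at 39.5 and 39.0 CPM in the libraries labelled WT Myc, at 37.2 and 36.2 CPM in those labelled KO1 Myc and at 45.1 and 42.8 CPM in those labelled KO2 Myc, all above WT Ctrl. Ccnd3 was higher in those labelled WT Myc (log2FC 0.61, SE 0.0722, edgeR adjusted p = 3.26e-06) and was not called in the KO lines (adjusted p = 0.0154 and 0.583). The share of Ccnd2 in D-type cyclin mRNA per kilobase was 14.0% ± 0.416, 13.3% ± 0.288 and 17.4% ± 0.979 in the libraries labelled WT Myc, KO1 Myc and KO2 Myc (mean ± SD, n = 2).

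Ccne1 was at 16.5 and 18.4 CPM in the libraries labelled WT Myc, at 20.001 and 22.9 CPM in those labelled KO1 Myc and at 17.4 and 18.3 CPM in those labelled KO2 Myc. These 6 libraries lay between WT Ctrl and KO2 Ctrl. Those labelled KO1 Myc lay above those labelled KO2 Myc, whereas KO1 Ctrl lay below KO2 Ctrl, again a cross-over. Ccne1 was 2.34-fold higher in those labelled WT Myc (log2FC 1.22, SE 0.123, edgeR adjusted p = 5.07e-07), lower in those labelled KO2 Myc (log2FC −1.0038, SE 0.0946, edgeR adjusted p = 2.88e-07), and not called in those labelled KO1 Myc (edgeR adjusted p = 0.14). Ccne2 was at 6.11 and 6.39 CPM in the libraries labelled WT Myc, at 6.05 and 7.10 CPM in those labelled KO1 Myc and at 10.9 and 7.18 CPM in those labelled KO2 Myc, and the KO2 Myc libraries stood apart from each other. It was higher in those labelled WT Myc (log2FC 0.95, SE 0.223, edgeR adjusted p = 0.00179), but not called without WT Ctrl replicate 1 (adjusted p = 0.0109) or WT Ctrl replicate 2 (0.0242). It was lower in those labelled KO1 Myc (log2FC −1.0024, SE 0.167, edgeR adjusted p = 0.000118) and KO2 Myc (log2FC −0.77, SE 0.153, edgeR adjusted p = 0.000546), the latter not called without KO2 Myc replicate 2 (adjusted p = 0.0138). The sum of E-type cyclins per kilobase ran from 8.34 CPM in those labelled WT Myc to 9.93 in those labelled KO1 Myc, a narrower range than with the Ctrl vector.

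Cdk2 was at 65.9 and 77.1 CPM in the libraries labelled WT Myc, at 55.5 and 54.9 CPM in those labelled KO1 Myc and at 74.7 and 75.5 CPM in those labelled KO2 Myc, with no overlap with WT Ctrl. It was higher in those labelled WT Myc (log2FC 0.80, SE 0.0769, edgeR adjusted p = 3.14e-07), lower in those labelled KO1 Myc (log2FC −0.49, SE 0.0737, edgeR adjusted p = 4.82e-05) and slightly higher in those labelled KO2 Myc (log2FC 0.25, SE 0.0729, edgeR adjusted p = 0.00985). The last call was lost in 8 of 11 alternatives, among them leaving out any 1 of the 4 libraries compared, with the highest adjusted p (0.0678) without KO2 Ctrl replicate 2. Cdk4 was at 715 and 644 CPM in the libraries labelled WT Myc, at 523 and 492 CPM in those labelled KO1 Myc and at 638 and 634 CPM in those labelled KO2 Myc, lowest in those labelled KO1 Myc. It was lower in those labelled KO1 Myc (log2FC −0.46, SE 0.0572, edgeR adjusted p = 6.18e-06), higher in those labelled KO2 Myc (log2FC 0.26, SE 0.0571, edgeR adjusted p = 0.00122) and not called in those labelled WT Myc (adjusted p = 0.236). The KO2 call was lost without KO2 Ctrl replicate 1 (adjusted p = 0.0153) or KO2 Ctrl replicate 2 (0.0122). With the Ctrl vector Cdk4 was higher in KO1 than in KO2. With the Myc vector it lay lower in those labelled KO1 Myc than in those labelled KO2 Myc, with no overlap. Trim33, Pdgfrb, Col1a2 and Krt19 crossed over between the same groups, the markers among them picked after their values were seen. Cdk6 was at 16.9 and 21.1 CPM in the libraries labelled WT Myc, at 20.7 and 22.1 CPM in those labelled KO1 Myc and at 18.0 and 15.3 CPM in those labelled KO2 Myc. It was lower in those labelled KO2 Myc (log2FC −0.52, SE 0.113, edgeR adjusted p = 0.00104), a call lost without KO2 Ctrl replicate 1 (adjusted p = 0.0113) or KO2 Myc replicate 2 (0.0242). Cdk2 and Cdk6 crossed over between the KO lines too. Cdk2 was higher and Cdk6 lower in KO1 Ctrl than in KO2 Ctrl. In those labelled KO1 Myc, Cdk2 lay below and Cdk6 above those labelled KO2 Myc, with no overlap. Ccnd2 and Cdkn1b crossed over as Cdk2 did, and Ccne1 as Cdk6 did, again with no overlap. Cdkn1b was not called between KO1 Ctrl and KO2 Ctrl (edgeR adjusted p = 0.0835). The groups labelled KO1 Myc and KO2 Myc were not tested against each other. Of all genes, 69.9% did not overlap between KO1 Ctrl and KO2 Ctrl, and the share that crossed over is not given. These cross-overs are thus no result about the set. Ccne2 lay lower in KO1 than in KO2 with either vector, and Ccnd1, Ccnd3 and Cdkn2c overlapped between KO1 Ctrl and KO2 Ctrl.

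Cdkn2c was at 12.1 and 12.2 CPM in the libraries labelled WT Myc, at 17.7 and 16.9 CPM in those labelled KO1 Myc and at 16.4 and 15.7 CPM in those labelled KO2 Myc, between the levels of WT Ctrl and of the KO lines with the Ctrl vector. Cdkn2c was higher in those labelled WT Myc (log2FC 0.44, SE 0.112, edgeR adjusted p = 0.00351) and lower in those labelled KO1 Myc (log2FC −0.36, SE 0.0909, edgeR adjusted p = 0.0039) and KO2 Myc (log2FC −0.49, SE 0.0909, edgeR adjusted p = 0.000282). The call in WT was lost with DESeq2 (adjusted p = 0.0198), with the compared groups alone in the fit (0.0191) and without WT Ctrl replicate 1 (0.0168), WT Ctrl replicate 2 (0.028) or WT Myc replicate 2 (0.0136). That in KO1 was lost with DESeq2 (0.0241) and without KO1 Ctrl replicate 1 (0.0544), KO1 Myc replicate 1 (0.0199) or KO1 Myc replicate 2 (0.0345). Cdkn1b was at 56.3 and 53.9 CPM in the libraries labelled WT Myc, at 48.9 and 47.8 CPM in those labelled KO1 Myc and at 55.7 and 59.9 CPM in those labelled KO2 Myc, the narrowest range of the set over the 6 groups. Cdkn1b was higher in those labelled KO2 Myc (log2FC 0.32, SE 0.0679, edgeR adjusted p = 0.00103), a call lost without KO2 Ctrl replicate 2 (adjusted p = 0.0145) or KO2 Myc replicate 2 (0.0204).

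**Figure D4:**
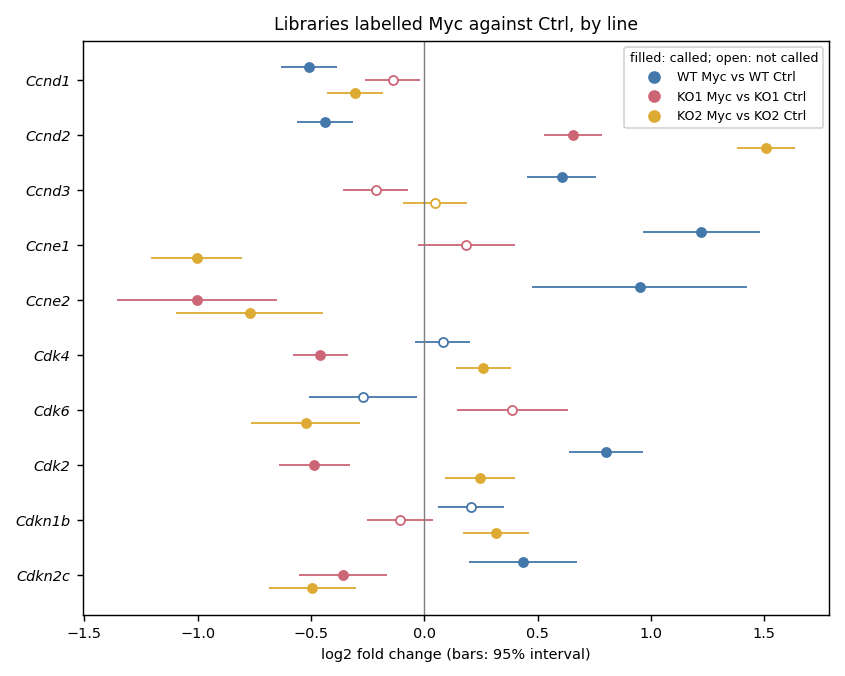
log2FC of each G1/S gene in libraries labelled Myc against Ctrl, in WT, KO1 and KO2 cells (points are edgeR estimates, bars are 95% intervals, filled points passed the threshold). For Ccnd2 the WT point lies at −0.44 and the KO points at 0.66 and 1.51, on the other side of 0.

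The difference of the Myc effect between a KO line and WT was tested by an interaction term. It was called for 9 of the 10 genes in KO1, beside 37.3% of all genes, and for 6 in KO2, beside 32.8%. The interaction was positive for Ccnd2 in KO1 (log2FC 1.10, SE 0.0840, edgeR adjusted p = 3.04e-08) and KO2 (log2FC 1.95, SE 0.0848, edgeR adjusted p = 8.16e-11), and negative in both lines for Ccnd3, Ccne1, Ccne2, Cdk2 and Cdkn2c. For Ccne1 it was −1.04 in KO1 (adjusted p = 5.59e-05) and −2.23 in KO2 (adjusted p = 1.34e-08) on the log2 scale. For Cdk2 it was −1.29 and −0.56, for Cdkn2c −0.79 and −0.93. Both terms share the WT libraries, and the interaction takes the KO with WT difference of the Ctrl vector as its base. Both also rest on the labels of the Myc libraries and on the replicates labelled WT Myc, which stood the farthest apart. These replicates had less Trim33 than WT Ctrl (log2FC −0.82). Ccnd1, Cdk4 and Cdk6 were called in KO1 and not in KO2, and whether the lines differ here was not tested. The call of Ccnd1 was lost without KO1 Ctrl replicate 1 (adjusted p = 0.0106), and that of Cdk6 without WT Ctrl replicate 2 (adjusted p = 0.0174), KO1 Ctrl replicate 2 (0.022) or KO1 Myc replicate 2 (0.0144).

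Set against each other with the Myc vector, KO and WT gave the following calls. Of the 10 genes, 3 were higher and 2 lower with the label KO1 Myc than with the label WT Myc (12.6% and 12.5% of all genes), and 3 were higher and 0 lower in those labelled KO2 Myc (17.2% and 18.0%). The groups did not overlap for 8 and 6 of the 10, against 64.3% and 70.3% of all genes. Ccnd1 (log2FC 0.50, SE 0.0585, edgeR adjusted p = 6.74e-06), Ccnd2 (log2FC 0.37, SE 0.0589, edgeR adjusted p = 0.00014) and Cdkn2c (log2FC 0.51, SE 0.0983, edgeR adjusted p = 0.00072) were higher in those labelled KO1 Myc. Cdk4 (log2FC −0.42, SE 0.0572, edgeR adjusted p = 2.85e-05) and Cdk2 (log2FC −0.37, SE 0.0737, edgeR adjusted p = 0.000864) were lower there. In those labelled KO2 Myc the higher genes were Ccnd1 (log2FC 0.34, SE 0.0584, edgeR adjusted p = 0.000189), Ccnd2 (log2FC 0.70, SE 0.0586, edgeR adjusted p = 7.76e-08) and Cdkn2c (log2FC 0.40, SE 0.0988, edgeR adjusted p = 0.0034). With the compared groups alone in the fit, 3 and 1 of these calls were left, the latter that of Ccnd2. Cdk2 in KO1 was also lost without KO1 Myc replicate 2 (adjusted p = 0.0108), and Cdkn2c in KO2 without WT Myc replicate 1 (0.014), KO2 Myc replicate 1 (0.0296) or KO2 Myc replicate 2 (0.0114).

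Of the 24 further G1/S genes tested, 7 were higher and 3 lower with the label WT Myc than in WT Ctrl (21.6% and 22.7% of all genes). In those labelled KO1 Myc, 4 were higher and 4 lower than in KO1 Ctrl (17.9% and 18.2%). In those labelled KO2 Myc, 6 were higher and 8 lower than in KO2 Ctrl (20.2% and 18.6%). E2f1 (log2FC 0.85) and Cdkn2d (p19 of the INK4 family, log2FC 0.65) were among the higher genes in those labelled WT Myc, and Rb1 (−0.47) and Ambra1, which targets D-type cyclins for degradation (−0.38), among the lower. In those labelled KO1 Myc, Cdkn1a (log2FC 0.90) and Fbxo31 (0.78) were higher, and Fbxo4 (−0.61) and Skp2, the ligase subunit that targets Cdkn1b (−0.52), were lower. In those labelled KO2 Myc, Mnat1 (log2FC 0.52) and E2f2 (0.48) were higher, and Ccna2 (−0.52) and Fbxo4 (−0.46) lower. Against those labelled WT Myc, 4 were higher and 2 lower in those labelled KO1 Myc (12.6% and 12.5% of all genes). In those labelled KO2 Myc, 4 were higher and 3 lower (17.2% and 18.0%). Cdkn1a was lower in both (log2FC −0.57 and −0.84) and Ccnb1 higher in both (0.41 and 0.45).

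In the HU experiment, which asks how the same transcripts respond to stalled forks with and without Trim33, few of the 10 genes passed the test at an adjusted p under 0.05. KO untreated against WT untreated gave 0 higher and 1 lower (6.29% and 5.74% of all genes). WT HU against WT untreated gave 1 higher and 0 lower (6.39% and 3.44%), KO HU against KO untreated 2 higher and 0 lower (4.65% and 1.80%), and KO HU against WT HU 0 higher and 1 lower (5.75% and 5.25%). The groups did not overlap for 5, 5, 8 and 7 of the 10 genes, where 50.1%, 51.0%, 45.1% and 55.4% of all genes did not. Ccnd2 was the gene called in each of the 4 comparisons. Of the markers, the summed stellate cell and fibroblast level was 18.0 to 24.1 CPM in WT untreated and 22.9 to 23.6 CPM in WT HU, against 6.01 to 11.4 CPM in KO untreated and 10.3 to 13.1 CPM in KO HU, and its part was not tested.

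**Figure D5:**
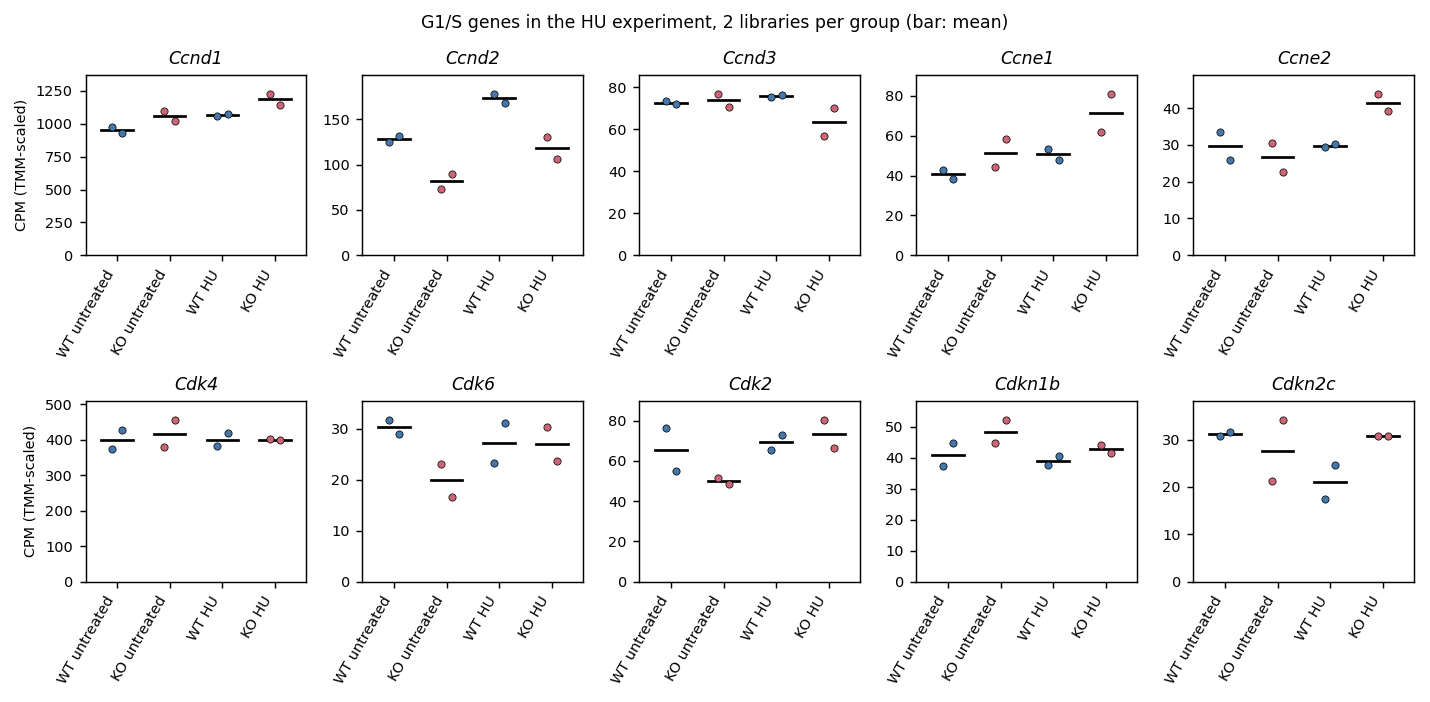
TMM-scaled CPM of the 10 G1/S genes in each of the 8 libraries of the HU experiment (points are libraries, bars are means of 2 libraries, all axes start at 0). Ccnd2 is lowest in KO untreated, at 73.6 and 89.5 CPM, and highest in WT HU, at 178 and 168 CPM.

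Ccnd2 was at 125 and 132 CPM in WT untreated, at 73.6 and 89.5 CPM in KO untreated, at 178 and 168 CPM in WT HU and at 130.1 and 107 CPM in KO HU. KO untreated lay below WT untreated and KO HU below WT HU, and each HU group lay above its untreated group. Ccnd2 was lower in KO untreated than in WT untreated (log2FC −0.65, SE 0.143, edgeR adjusted p = 0.000975), and this call held in each of 12 alternatives, with a log2FC from −0.80 to −0.53. It was lower in KO HU than in WT HU (log2FC −0.55, SE 0.133, edgeR adjusted p = 0.00314), but not called without WT HU replicate 1 (adjusted p = 0.0782) or KO HU replicate 2 (0.147). With HU it rose in WT (log2FC 0.43, SE 0.133, edgeR adjusted p = 0.0249) and in KO (log2FC 0.53, SE 0.143, edgeR adjusted p = 0.0102). The rise in WT was not called with DESeq2 (adjusted p = 0.083) or when any 1 of the 4 libraries was left out, at adjusted p from 0.0786 (without WT untreated replicate 2) to 0.232 (without WT HU replicate 1). The rise in KO was not called without KO untreated replicate 1 (0.16) or KO HU replicate 1 (0.316). As a share of D-type cyclin mRNA per kilobase, Ccnd2 was 7.44% ± 0.449 in WT untreated, 4.44% ± 0.789 in KO untreated, 8.86% ± 0.409 in WT HU and 5.79% ± 0.587 in KO HU (mean ± SD, n = 2).

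Cdk2 was at 76.3 and 54.9 CPM in WT untreated, at 51.6 and 48.4 CPM in KO untreated, at 65.2 and 73.1 CPM in WT HU and at 80.2 and 66.4 CPM in KO HU. It was higher in KO HU than in KO untreated (log2FC 0.56, SE 0.181, edgeR adjusted p = 0.0489), with no overlap. The call was lost with DESeq2 (adjusted p = 0.184) and when any 1 of the 4 libraries was left out, at adjusted p from 0.0547 (without KO HU replicate 2) to 0.457 (without KO HU replicate 1). Ccne1 was at 42.8 and 38.3 CPM in WT untreated, at 44.3 and 58.1 CPM in KO untreated, at 53.5 and 47.8 CPM in WT HU and at 61.9 and 81.0 CPM in KO HU. The KO HU libraries were the highest and also the farthest apart, and no comparison of Ccne1 passed the test, KO HU against WT HU coming nearest (edgeR adjusted p = 0.0749). Ccne2 was at 33.4 and 25.9 CPM in WT untreated, at 30.5 and 22.7 CPM in KO untreated, at 29.3 and 30.1 CPM in WT HU and at 43.8 and 39.1 CPM in KO HU, with the KO HU libraries above the others and an adjusted p of 0.0861 against KO untreated. The sum of E-type cyclins per kilobase was 23.7 CPM in WT untreated, 26.9 in KO untreated, 27.5 in WT HU and 38.7 in KO HU.

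Cdkn2c, which rose in both KO lines of the Myc experiment, was at 30.8 and 31.6 CPM in WT untreated, at 21.1 and 34.1 CPM in KO untreated, at 17.5 and 24.6 CPM in WT HU and at 30.8 and 30.8 CPM in KO HU. KO untreated spanned WT untreated, and no comparison was called (adjusted p = 0.76 for KO untreated against WT untreated). Cdkn1b was at 37.3 and 44.7 CPM in WT untreated, at 44.7 and 52.1 CPM in KO untreated, at 37.5 and 40.5 CPM in WT HU and at 44.2 and 41.5 CPM in KO HU, with groups that overlapped or lay side by side. Ccnd1 was at 972 and 929.7 CPM in WT untreated, at 1094 and 1023 CPM in KO untreated, at 1062 and 1078 CPM in WT HU and at 1227 and 1145 CPM in KO HU. It lay higher in KO than in WT and higher with HU than without, by amounts that did not pass the test (adjusted p from 0.299 to 0.385). Ccnd3 was at 73.3 and 71.8 CPM in WT untreated, at 76.8 and 70.8 CPM in KO untreated, at 75.4 and 76.5 CPM in WT HU and at 56.6 and 69.9 CPM in KO HU, and gave an adjusted p of 0.953 between KO and WT untreated. Cdk4 was at 374 and 427 CPM in WT untreated, at 379 and 455 CPM in KO untreated, at 382 and 419 CPM in WT HU and at 401 and 399 CPM in KO HU, and Cdk6 was at 31.7 and 28.9 CPM in WT untreated, at 23.2 and 16.7 CPM in KO untreated, at 23.2 and 31.2 CPM in WT HU and at 30.4 and 23.7 CPM in KO HU. Neither kinase was called in any comparison of this experiment.

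The difference of the HU effect between KO and WT, tested by the interaction term, was called by edgeR's quasi-likelihood test for 0 of the 10 genes, beside 0.0714% of all genes. At an unadjusted p under 0.05 it was 0 as well, and DESeq2 also called 0. The lowest unadjusted p in edgeR was that of Cdkn2c, 0.0531. The 95% interval of the interaction ran from −0.29 to 0.49 on the log2 scale for Ccnd2, from −0.02 to 1.31 for Ccne2 and from −0.01 to 1.44 for Cdkn2c. The missing calls do not show that KO and WT cells respond alike.

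Among the 24 further G1/S genes tested here, 1 was higher and 2 were lower in KO untreated than in WT untreated (6.29% and 5.74% of all genes). In WT HU, 3 were higher and 3 lower than in WT untreated (6.39% and 3.44%). In KO HU, 2 were higher and 2 lower than in KO untreated (4.65% and 1.80%), and 1 was higher and 0 lower than in WT HU (5.75% and 5.25%). Cdkn1a rose most with HU, in WT (log2FC 3.16, SE 0.128, edgeR adjusted p = 3.14e-30) and in KO (log2FC 2.63, SE 0.119, edgeR adjusted p = 5.82e-28). It was higher in KO untreated than in WT untreated (log2FC 0.79, SE 0.140, edgeR adjusted p = 3.71e-05), whereas both KO lines of the Myc experiment had less Cdkn1a than WT Ctrl. Rb1 rose with HU in WT (log2FC 1.10) and Cdkn2b in KO (0.92). Ccnb1, the mitotic cyclin, fell with HU in WT (log2FC −0.95) and KO (−0.77), Cdkn2d fell in WT (−0.80) and Ccna2 in KO (−0.55). Rbl2 and Mnat1 were lower in KO untreated than in WT untreated (log2FC −0.77 and −0.77), and Cul1 was higher in KO HU than in WT HU (0.45).

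Over the 12 pairwise comparisons of both experiments, Ccnd2 was called in 12, 6 times higher and 6 times lower. Cdk2 was called in 8 (5 higher, 3 lower), Cdkn2c in 7 (5 higher, 2 lower), Ccne1 in 5 (4 higher, 1 lower), and Ccne2 in 5 (3 higher, 2 lower). Cdk4 was called in 5 (1 higher, 4 lower), Ccnd1 in 4 (2 higher, 2 lower), Ccnd3 in 3 (3 higher, 0 lower), Cdk6 in 3 (1 higher, 2 lower) and Cdkn1b in 1 (1 higher, 0 lower). These counts share groups and are a description. KO untreated against WT untreated called only Ccnd2 of the 7 genes called in each KO line with the Ctrl vector. Whether the effects differ between the experiments was not tested, since the tables were normalized separately and differ in depth. On mm9, Ccnd2 lies at chr6:127075797-127101066, minus strand, where 9330179D12Rik overlaps it on the opposite strand, Cdk2 at chr10:128134995-128142107, minus strand, and Cdkn2c at chr4:109333481-109339794, minus strand. Ccnd1 is overlapped by Oraov1 and Ccnd3 by Bysl, both on the opposite strand, and Ccnd3 has a pseudogene copy, Ccnd3-ps, in the annotation.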

How the data were processed

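RNA-seq counts of 20 libraries were used, from p19/Nras cells. According to the labels and the study's methods, the authors mapped reads to mm9 with STAR, and the submitters' processing notes name STAR 2.5.4, edgeR 3.26.8, bcl2fastq 2.20 and FastQC 0.11.5. The labels name TRIzol and the NEBNext Ultra II RNA kit, and the study's methods RNeasy and NEBNext Ultra. The authors deposited counts, whole numbers of reads per gene with no normalization that could be detected, although the table of the Myc experiment is named as normalized. The rarest gene listed holds 26 counts over the 12 libraries of the Myc experiment and 29 over the 8 of the HU experiment. The counting tool, annotation and strand setting are not given in the sources used here. In the HU experiment 71.9% of counts from 1 to 50 were even, against 48.4% in the Myc experiment, so counts divided by 2 were tried. The authors' 8 tables of their own edgeR comparisons hold log fold change, log CPM, F, p-value and FDR, and were not used. Columns of samples left unused numbered 0.

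Each experiment was fitted alone with edgeR 4.0.16 (limma 3.58.1, R 4.3.3), with TMM scaling, 1 coefficient per group and edgeR's quasi-likelihood test. Adjusted p are Benjamini-Hochberg values over all 13107 or 11210 genes. Thresholds were 0.01 (Myc experiment) and 0.05 (HU experiment). The low-count filter removed 0 genes. CPM are TMM-scaled, and the standard error (SE) of a log2 fold change (log2FC) is its size divided by the square root of F. Intervals use the t quantile of the same test. With 2 libraries per group an exact permutation test cannot go below p = 0.333, so calls rest on the spread that edgeR shares over genes and groups. No pair of replicate libraries was close enough to be a duplicate. Exon lengths and overlaps came from the GENCODE annotation of mm9, promoters from RefSeq. The procedure was tested on simulated data. Markers fixed for the cell type check, the further G1/S genes, the members and the alternatives (DESeq2 1.42.0, library totals without TMM, filters, other thresholds, the compared groups alone, a replicate block, each library left out) were chosen with earlier results of these data known. Named genes are the 10 members, Trim33 and Myc, up to 2 further G1/S genes per direction and comparison with the largest change at a mean of at least 1 CPM, and the 3 genes most like the member with the widest span. For the interaction terms, the further genes are not printed.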

Additional observations from a re-analysis of the deposited data

Results flagged for a closer look

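The effect of the Myc vector differed between a KO line and WT for the following genes, as tested by edgeR's interaction term, with positive values where the log2FC of Myc against Ctrl was higher in the KO line. In KO1 the difference on the log2 scale was 0.37 (SE 0.0824, adjusted p = 0.00144) for Ccnd1, 1.10 (SE 0.0840, adjusted p = 3.04e-08) for Ccnd2, −0.82 (SE 0.0992, adjusted p = 4.63e-06) for Ccnd3, −1.04 (SE 0.160, adjusted p = 5.59e-05) for Ccne1, −1.95 (SE 0.278, adjusted p = 2.56e-05) for Ccne2. The kinases and the inhibitor of the same line gave −0.54 (SE 0.0807, adjusted p = 4.08e-05) for Cdk4, 0.66 (SE 0.162, adjusted p = 0.003) for Cdk6, −1.29 (SE 0.107, adjusted p = 7.18e-08) for Cdk2, −0.79 (SE 0.144, adjusted p = 0.000263) for Cdkn2c. In KO2 it was 1.95 (SE 0.0848, adjusted p = 8.16e-11) for Ccnd2, −0.56 (SE 0.0982, adjusted p = 0.000226) for Ccnd3, −2.23 (SE 0.155, adjusted p = 1.34e-08) for Ccne1, and −1.72 (SE 0.270, adjusted p = 7.83e-05) for Ccne2, −0.56 (SE 0.106, adjusted p = 0.000466) for Cdk2, −0.93 (SE 0.144, adjusted p = 7.02e-05) for Cdkn2c. All of these values rest on the labels of the libraries with the Myc vector, and against the label WT Myc Trim33 was higher with the label KO1 Myc (log2FC 0.40), while with the label KO2 Myc it did not pass the test (log2FC −0.20, edgeR adjusted p = 0.0263). Both differences also use the group labelled WT Myc. Its replicates deviated by 11.05 times the counting noise, against 2.21 to 4.52 times in the other groups of that experiment. This group also had less Trim33 than WT Ctrl (log2FC −0.82). With 2 libraries per group, which library of a pair stands apart cannot be told.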

How the results depend on the processing

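Over the alternatives, the values of members called in the report kept their direction in 825 of 825 cases and their call in 757, and the other 68 lost it. Fits with a library left out are given in the next paragraph. In the other alternatives the number of the 10 genes called stayed within 1.5 times its value except in the following cases. Their cause was not tested. The share of all genes called in each alternative is not given, so these counts are no result about the set. With the compared groups alone in the fit, it was 3 for the libraries labelled KO1 Myc and 1 for those labelled KO2 Myc against WT Myc, and 2 for KO HU against WT HU. With DESeq2 it was 0 for WT HU and 1 for KO HU against untreated, and with a threshold of 0.01 it was 0 for both.

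With each library left out, the number was 6 to 7 for KO1 Ctrl and 6 to 7 for KO2 Ctrl against WT Ctrl, 3 to 4 for KO2 Ctrl against KO1 Ctrl, 5 to 7, 4 to 5 and 5 to 8 for the Myc against the Ctrl vector in WT, KO1 and KO2, 4 to 5 and 2 to 3 for KO1 Myc and KO2 Myc against WT Myc, and 8 to 10 and 6 to 7 for the interactions. In the HU experiment it was 1 for KO against WT untreated, 0 for WT HU and 0 to 1 for KO HU against untreated, 0 to 1 for KO HU against WT HU, and 0 for the interaction. Where this leaves a group with 1 library, that library is assumed to vary like the other groups. The share of all genes called in these fits is not given either, so the counts are no result about the set.

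Replicate numbers gave no pairing of the samples that held over all groups. Deviations of same-numbered libraries correlated from −0.36 to 0.48 over 15 pairs of groups in the Myc experiment, 4 of them over 0.1. Both extremes involve WT Myc, with KO2 Myc (−0.36) and with KO1 Myc (0.48). Whether some of these libraries share a batch was not tested. In the HU experiment the correlations ran from −0.024 to 0.087 over 6 pairs, 0 of them over 0.1. With a replicate block, the number called was 7, 7, 5, 7, 5, 8, 5, 3, 9 and 6 in the comparisons of the Myc experiment, in the order above. It was 1, 1, 2, 1 and 0 in the HU experiment. The Cdk2 call in KO2 Myc against KO2 Ctrl was lost. For this fit too, the share of all genes called is not given.

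Library totals without TMM and the size factors of DESeq2 moved the median log2FC of all genes by −0.094 to 0.083. Library totals moved the share of calls that were higher from 48.9% to 60.1% in WT Myc against WT Ctrl, from 50.6% to 38.4% in the KO2 interaction, from 52.3% to 42.2% in KO against WT untreated and from 52.3% to 40.7% in KO HU against WT HU. With DESeq2 that share went from 62.5% to 40.0% in the HU by KO interaction, of few calls. The HU libraries hold fewer counts, and their common BCV was 0.102 against 0.0498; the part of each in the number of calls was not tested.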
